A study of Mus musculus with 3 samples.

Results

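The 10 glycolysis genes Slc2a1, Hk2, Pfkp, Aldoa, Gapdh, Pgk1, Eno1, Pkm, Ldha and Pdk1 were followed by RNA-Seq in mouse embryonic stem (ES) cells after knockdown (KD) of NUP153, a nucleoporin of the nuclear basket. They were chosen by name, for glucose uptake and glycolysis, out of 24421 counted genes. All 10 have a row of read counts, and 9 of them passed a minimum mean of 10 reads over the 3 libraries. Eno1, with 3, 6 and 11 reads, did not. The question put to these data was how the genes were expressed in control ES cells and whether their levels differed in the NUP153 KD cells.

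The control library came from ES cells transduced with a scramble shRNA lentivirus and carries the genotype label Wild type. The NUP153 KD-1 and KD-2 libraries each came from cells transduced with a different NUP153 shRNA and carry the genotype label NUP153 knockdown. All 3 cultures were the undifferentiated female EL 16.7 line, with the strain label F2:129S1/CastEiJx 129S1, grown with LIF and FBS on γ-irradiated embryonic fibroblasts (MEFs) of Tg(DR4)1Jae/J mice and kept for 2 days in puromycin (2 μg/ml) for selection. The labels name no clones, and RNA of the feeder layer can be in every library. Each condition has 1 library, so a difference between 2 libraries has no replicate check and no p-value. The 95% intervals given below are exact and cover the counting of reads only.

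Glycolysis turns glucose into pyruvate in the cytoplasm, with a net gain of ATP and NADH, and lactate dehydrogenase returns the NADH to NAD+ when pyruvate is reduced to lactate. Mouse ES cells are known for a high rate of glycolysis in the presence of oxygen. Many genes of the pathway are known targets of the hypoxia-inducible factors, which bind a short core sequence in promoters and enhancers, and of MYC, which binds the E-box.

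Reads on genes numbered between 69839336 and 85258834 per library. Nup153, the targeted gene, had 27870 reads in control, 16451 under KD-1 and 11126 under KD-2. After upper-quartile scaling its log2 fold change was -0.98 under KD-1 and -1.37 under KD-2, so both knockdown libraries were below control, as their labels say. The libraries also differed in markers of the feeder cells. All 15 fibroblast markers were lower in KD-1 than in control, 11 of them past 1.5-fold, and all 15 were higher in KD-2, 12 of them past 1.5-fold. The sum of these markers was 0.161% of the reads on genes in control, 0.0730% under KD-1 and 0.324% under KD-2. The 14 ES cell markers summed to 0.521%, 0.567% and 0.431%, and none of the ES cell or fibroblast markers was at 0 in any library. Their part in the results on glycolysis genes was not tested. In such bulk libraries, fewer cells of a type and less RNA per cell cannot be told apart.

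The promoters of the members with the largest differences are shown first, because Pgk1, Ldha and Pfkp were lower together in KD-2, Pdk1 was lowest in KD-1 and Slc2a1 was above control in both. Each sequence is the 250 bases before a start site, 5′ to 3′ on the strand of the gene, from RefSeq on GRCm38.p6. Of several RefSeq start sites, that nearest to the start of a principal GENCODE transcript was taken. Capitals mark each ACGTG or GCGTG on either strand (CACGT and CACGC on the strand printed), the core letters of a hypoxia response element.
Pgk1 (chrX:106186850-106187099, plus strand): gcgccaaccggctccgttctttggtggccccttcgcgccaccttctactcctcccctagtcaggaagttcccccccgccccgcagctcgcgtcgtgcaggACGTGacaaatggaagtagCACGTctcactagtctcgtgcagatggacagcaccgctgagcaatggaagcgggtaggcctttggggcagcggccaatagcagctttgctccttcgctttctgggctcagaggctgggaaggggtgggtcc
Ldha (chr7:46845554-46845803, plus strand): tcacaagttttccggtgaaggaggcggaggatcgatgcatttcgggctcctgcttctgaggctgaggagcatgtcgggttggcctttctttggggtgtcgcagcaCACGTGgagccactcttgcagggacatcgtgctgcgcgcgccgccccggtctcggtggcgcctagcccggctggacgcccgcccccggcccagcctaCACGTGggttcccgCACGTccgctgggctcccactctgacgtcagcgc
Pfkp (chr13:6648772-6649021, minus strand): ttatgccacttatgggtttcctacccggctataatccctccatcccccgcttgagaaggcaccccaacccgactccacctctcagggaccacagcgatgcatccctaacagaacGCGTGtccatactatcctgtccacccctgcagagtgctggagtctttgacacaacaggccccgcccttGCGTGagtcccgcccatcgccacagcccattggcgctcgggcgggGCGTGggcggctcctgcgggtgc
Pdk1 (chr2:71872974-71873223, plus strand): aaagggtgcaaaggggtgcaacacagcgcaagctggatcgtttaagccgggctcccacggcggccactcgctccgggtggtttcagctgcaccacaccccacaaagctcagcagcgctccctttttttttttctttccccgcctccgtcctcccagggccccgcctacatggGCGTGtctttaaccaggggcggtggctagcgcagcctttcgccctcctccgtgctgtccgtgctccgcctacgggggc
Slc2a1 (chr4:119108495-119108744, plus strand): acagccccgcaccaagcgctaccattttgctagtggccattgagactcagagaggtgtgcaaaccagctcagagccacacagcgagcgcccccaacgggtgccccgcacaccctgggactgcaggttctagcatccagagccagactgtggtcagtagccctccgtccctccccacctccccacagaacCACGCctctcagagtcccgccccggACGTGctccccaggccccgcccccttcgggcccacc

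Pgk1 holds 2 ACGTG cores, which begin 150 and 131 bases before the start site. Ldha holds 3 separate blocks, 2 of which are the E-box CACGTG, a palindrome that contains ACGTG on both strands. Pfkp holds 3 GCGTG and no ACGTG, and Pdk1 holds 1 GCGTG and no ACGTG. Slc2a1 holds 1 of each. Over all 10 genes, with 1 start site per gene, ACGTG was found in 5, GCGTG in 5, either of them in 9 and CACGTG in 1. Among the 32851 mouse start sites in the RefSeq set, 16.6% have an ACGTG, 28.2% a GCGTG, 38.6% either and 6.02% a CACGTG in a window of the same length. The windows of the 5 printed promoters are richer in G and C (62.8% to 67.2%) than the median of all windows (52.4%). The 4 members past 1.5-fold in a knockdown include windows with ACGTG (Pgk1, Ldha) and without it (Pfkp, Pdk1). Pkm has neither core in the window used, while the window of its other RefSeq start site has an ACGTG.

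In control ES cells the members covered a wide range of levels. Given per kilobase of the longest protein-coding transcript and per scaled library size (RPKM), the order in control was Pgk1 (1090), Gapdh (614), Pkm (470), Aldoa (366), Ldha (303), Hk2 (106), Pfkp (93.1), Slc2a1 (21.9) and Pdk1 (21.1). Slc2a1 and Pdk1 were thus neighbours without a visible gap in control, while in KD-1 they were at 27.2 and 11.3. The order was the same in all 3 libraries. With 1 library per condition no spread between replicates is known for any pair of neighbours. The order does depend on the length used. With the length taken as the number of 50-base stretches that no other gene's transcript holds, Gapdh (RPKM 3631) was next to Pgk1 (3496) at the top in control. With the length of all exons of the gene together, Pkm (229) lay above Gapdh (211).

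**Figure D1:**
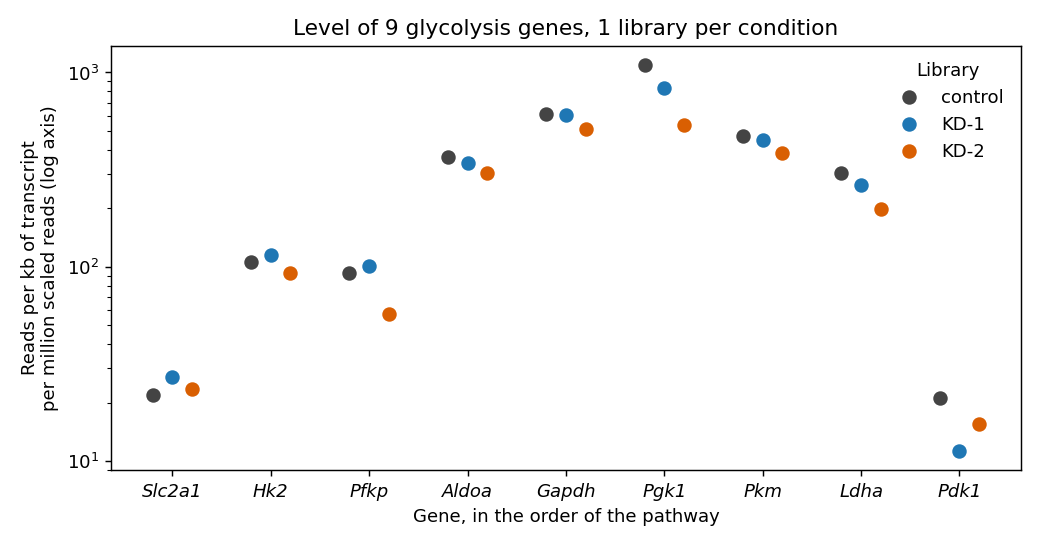
Level of the 9 members that passed the minimum mean, in RPKM on a log axis, 1 point per library. Pgk1 is at 1090 in control, 834 under KD-1 and 536 under KD-2, while Slc2a1 and Pdk1 are the lowest in each library.

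The genes of glucose uptake and its first phosphorylation stayed within 1.5-fold of control. Slc2a1, the glucose transporter GLUT1 (chr4:119108711-119137983, plus strand), had 5075 reads in control, 7318 under KD-1 and 5647 under KD-2. It was the only measured member above control in both knockdowns, by a log2 fold change of 0.31 (95% interval 0.26 to 0.37) under KD-1 and 0.11 (0.05 to 0.16) under KD-2. Slc2a1 had 0.0943 reads per read of Slc2a3, which encodes the transporter GLUT3, in control, 0.108 under KD-1 and 0.107 under KD-2. Hk2, hexokinase 2 (chr6:82725025-82774454, minus strand), which phosphorylates glucose, had 41457, 52155 and 37395 reads. Its log2 fold change was 0.12 under KD-1 and -0.19 under KD-2, on opposite sides of control, with 0.041 under KD-1 by DESeq2 size factors and -0.098 under KD-2 by library totals. Hk2 had 34.6 reads per read of Hk1, another hexokinase, in control, 32.1 under KD-1 and 25.6 under KD-2.

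Pfkp, the platelet-type subunit of phosphofructokinase (chr13:6579768-6648777, minus strand), which catalyses the committed step of glycolysis, had 27439 reads in control, 34657 under KD-1 and 17305 under KD-2. Only KD-2 was low. The log2 fold change was 0.12 (0.10 to 0.14) under KD-1 and -0.71 (-0.74 to -0.68) under KD-2. Among the 7881 genes averaging at least 1000 reads, 163 were lower than Pfkp in KD-2. The liver-type subunit Pfkl had log2 fold changes of -0.13 and -0.17, and the muscle type Pfkm 0.21 and 0.49. Pfkp had 2.63 reads per Pfkl read in control, 3.12 under KD-1 and 1.81 under KD-2. Pfkp shares 748 exon bases with Pitrm1 on the opposite strand, and which strand was counted is not given in the sources used here.

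Aldoa, aldolase A (chr7:126795234-126800751, minus strand), which splits fructose bisphosphate, had 40374 reads in control, 43787 under KD-1 and 34526 under KD-2, or log2 fold changes of -0.10 and -0.27. Gapdh, the dehydrogenase that makes the first NADH (chr6:125161715-125166467, minus strand), had 61982, 70632 and 53300 reads, or -0.03 (-0.04 to -0.01) and -0.26 (-0.28 to -0.25). Both were close to control in KD-1, while KD-2 was lower by 17.1% and 16.7%. Over all genes averaging at least 1000 reads, the middle 50% lay between -0.34 and 0.21 in KD-2, which holds both values.

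Gapdh is widely used as the reference in RT-PCR, and the study's primer list has a pair for the mouse gene. The pair is shown because the reads allow the same scaling to be made from the libraries.
mGAPDH F: atgaatacggctacagcaacagg
mGAPDH R: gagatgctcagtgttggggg

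The primers lie at bases 1181 to 1203 and 1305 to 1324 of the longest protein-coding Gapdh transcript (1420 bases) and span 144 bases. The forward primer was also found in transcripts of 69 other annotated genes and the reverse primer in those of 6, and both in those of 4. Nup153 had 0.450 reads per Gapdh read in control, 0.233 under KD-1 and 0.209 under KD-2. Scaled by Gapdh, Nup153 was at 0.518 of control under KD-1 and 0.464 under KD-2. Scaled by the upper quartile of all genes, it was at 0.509 and 0.387. The choice of reference thus left KD-1 almost as it was and placed KD-2 nearer to control.

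Pgk1, phosphoglycerate kinase 1 (chrX:106187100-106203699, plus strand), which makes ATP from 1,3-bisphosphoglycerate, had the most reads of all members, with 141468 in control, 125563 under KD-1 and 71821 under KD-2. Both knockdowns were lower than control and KD-2 lower than KD-1. The log2 fold change was -0.39 (-0.40 to -0.38) under KD-1 and -1.02 (-1.04 to -1.01) under KD-2, the lowest of the members there. Of the 7881 genes averaging at least 1000 reads, 470 were lower than Pgk1 under KD-1 and 13 under KD-2. Pgk1 lies on the X chromosome, where the median log2 fold change in KD-2 was -0.31 over 318 genes with that mean, against -0.09 over 7538 autosomal genes. In KD-1 these medians were -0.03 and -0.01. Pgk1 had the lowest value of the 318 X chromosome genes in KD-2. The part of the chromosome in the Pgk1 value was not tested.

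Eno1, enolase 1 (chr4:150236721-150248879, plus strand), had 3 reads in control, 6 under KD-1 and 11 under KD-2. Enolase forms phosphoenolpyruvate. The row named Eno1b, a near copy of it, had 12397, 13497 and 11133 reads, with log2 fold changes of -0.09 and -0.20. Of 1978 stretches of 50 bases in the longest Eno1 transcript, 70.5% are also in Eno1b and 550 are in no other gene. Whether reads from the Eno1 locus were counted under Eno1b or left out cannot be told apart here, so no level of Eno1 is given. The other enolases had few reads. Eno2, known from neurons, had 282 control reads, at -0.34 and 0.67 on the log2 scale for KD-1 and KD-2, and Eno3, known from muscle, had 571 reads with 0.11 and -0.15.

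Pkm, pyruvate kinase (chr9:59656368-59679375, plus strand), which forms pyruvate and ATP, had 81279 reads in control, 90575 under KD-1 and 69047 under KD-2, or log2 fold changes of -0.06 and -0.28. Counts per gene do not tell its M1 and M2 isoforms apart. Ldha, lactate dehydrogenase A (chr7:46841475-46855627, plus strand), had 39135, 39328 and 26374 reads. Its log2 fold change was -0.21 (-0.23 to -0.19) under KD-1 and -0.61 (-0.64 to -0.59) under KD-2, so that KD-2 lay just past 1.5-fold. With library totals it was -0.52, no longer past it. Ldhb, the subunit that favours pyruvate formation, had 3311, 6643 and 3525 reads, or 0.79 under KD-1 and 0.05 under KD-2. The ratio of Ldha to Ldhb reads was thus 11.8 in control, 5.92 under KD-1 and 7.48 under KD-2, lower in both knockdowns, with Ldhb higher in KD-1 and Ldha lower in KD-2.

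Pdk1, pyruvate dehydrogenase kinase 1 (chr2:71873224-71903858, plus strand), which inhibits pyruvate dehydrogenase and so limits entry of pyruvate into the mitochondrial cycle, had 7796 reads in control, 4820 under KD-1 and 5893 under KD-2. It was the only member with its lowest level in KD-1. The log2 fold change was -0.91 (-0.96 to -0.86) under KD-1 and -0.45 (-0.50 to -0.40) under KD-2. Of the 7881 genes averaging at least 1000 reads, 74 were lower than Pdk1 under KD-1 and 1173 under KD-2. Pdk3, another kinase of the complex, had log2 fold changes of -0.15 and -0.38, and the ratio of Pdk1 to Pdk3 reads was 1.43, 0.845 and 1.37. No stretch of 50 bases of the Pdk1 or Hk2 transcript is shared with another gene.

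**Figure D2:**
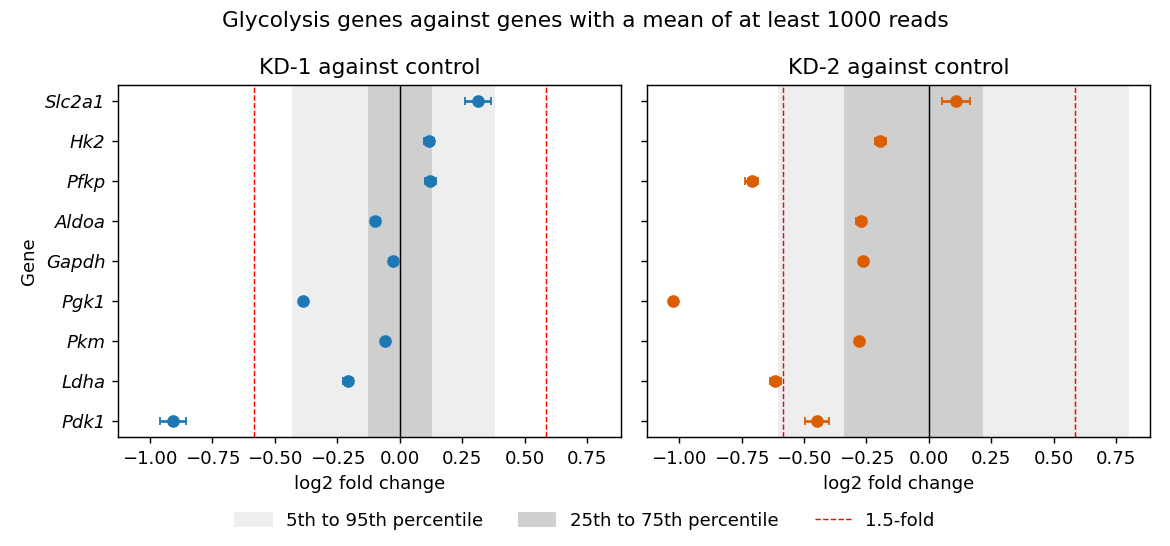
log2 fold change of each member in KD-1 (left) and KD-2 (right) against control, with 95% counting intervals, over the range of the 7881 genes averaging at least 1000 reads (grey bands, percentiles as named) and the 1.5-fold limits (dashed). Pdk1 at -0.91 lies past the limit in KD-1, and Pfkp, Pgk1 and Ldha at -0.71, -1.02 and -0.61 lie past it in KD-2.

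Counted over the 9 measured members, KD-1 had 1 member lower past 1.5-fold (Pdk1) and 0 higher. Among all 16670 genes averaging at least 10 reads, 5.39% were lower and 8.98% higher by that much in KD-1. Among genes averaging at least 1000 reads, which each of the 9 members has, the shares were 2.88% and 1.27%. In KD-2, 3 members were lower past 1.5-fold (Pfkp, Pgk1 and Ldha, without Ldha when scaled by library totals) and 0 were higher, beside 7.53% lower and 19.4% higher of all genes, and 5.65% and 9.94% of genes with at least 1000 reads. The value was below control for 8 of 9 members in KD-2 and for 6 of 9 in KD-1. Of genes averaging at least 1000 reads, 58.8% were below control in KD-2 and 51.6% in KD-1. The median log2 fold change of the members was -0.059 in KD-1, beside 0.03 over all genes and -0.01 over genes with at least 1000 reads. With DESeq2 size factors it was -0.13 in KD-1, beside -0.04 over all genes. In KD-2 it was -0.28, beside 0.04 and -0.10, and -0.18 with library totals, beside 0.14 over all genes. Both comparisons use the same control library, so they are not independent of each other.

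KD-1 and KD-2 were also compared directly, without the control. Pfkp (0.83, 0.81 to 0.86) and Pgk1 (0.64, 0.62 to 0.65) were higher in KD-1 past 1.5-fold, and 0 members were lower past it, beside 11.7% higher and 17.6% lower of all genes. Among those averaging at least 1000 reads these shares were 6.8% and 11.8%. Pdk1 (-0.46) was the only measured member with its lower value in KD-1. The median over the members was 0.24, beside 0.08 over all genes and 0.13 over genes with at least 1000 reads. With library totals the median was 0.12, beside -0.04 over all genes. Under DESeq2 size factors or library totals Pgk1 was no longer past 1.5-fold.

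Both knockdown libraries as 1 group were tested against control with edgeR's quasi-likelihood test, which has 1 residual degree of freedom and takes the spread from KD-1 and KD-2. No member passed an adjusted p under 0.05 (0 of 9), 0 had an unadjusted p under 0.05, and DESeq2's Wald test called 0 as well. Over all genes the quasi-likelihood test called 0.024%, and 1.48% had an unadjusted p under 0.05. The Wald test called 0.012% of all genes, with 0.57% at that unadjusted p. Under TMM, DESeq2 size factors and library totals edgeR called 0 genes, with 1.14%, 0.726% and 0.72% at the unadjusted p, and without a filter it called 0.00945%, with 1.25%. The lowest unadjusted p of a member was that of Pdk1, at 0.0830 (log2 fold change -0.66, adjusted p = 1.00), followed by Pgk1 at 0.240 (-0.67, adjusted p = 1.00). Nup153 itself had an unadjusted p of 0.00484 and an adjusted p of 1.00 in this quasi-likelihood test. The test, which takes its spread from 2 different shRNAs, thus did not call the targeted gene either. Its result does not tell whether the levels of glycolysis genes differed from control.

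The summed reads of the 10 members were 0.617% of all reads on genes in control, 0.550% under KD-1 and 0.460% under KD-2. After scaling, the sum was 0.906 of control under KD-1 and 0.698 under KD-2. Without Pgk1, the member with the most reads, the sum of the others was 0.971 and 0.794 of control (an alternative chosen after seeing the data). The sum of the ES cell markers was 1.10 and 0.774 of control, and that of the fibroblast markers 0.460 and 1.88. The sum of 7 primitive endoderm markers was 0.869 and 1.66 of control, but 89.0% to 92.9% of these reads were of Pdgfra, and the other 6 markers summed to 1.22 and 1.51 (an alternative chosen after seeing the data). In KD-2 the member and ES cell marker sums were both low while the fibroblast sum was high, as was the primitive endoderm sum with or without Pdgfra. In KD-1 the member sum was slightly low while the ES cell marker sum was slightly high and the fibroblast sum low. The primitive endoderm sum in KD-1 was below control with Pdgfra and above it without. Among ES cell markers in KD-2, Zfp42 (-0.63) and Dppa4 (-0.61) were lower past 1.5-fold and Utf1 (1.23) was higher, with Pou5f1 at -0.15 and Nanog at -0.23. These are 14.3% lower and 7.14% higher of the 14 markers, beside 7.53% and 19.4% of all genes. Utf1 (0.70) was also higher past 1.5-fold in KD-1. Of the fibroblast markers, Col3a1, a collagen gene and the one with the most reads, was at -1.31 for KD-1 and 1.02 for KD-2. Of 6 measured primitive endoderm markers, Gata6 (1.14), Pdgfra (0.74) and Dab2 (0.70) were higher past 1.5-fold in KD-2, beside 19.4% of all genes. Sox17 had 15 reads in control and 31 under KD-1, and the counting interval of its log2 fold change (0.81, -0.10 to 1.83) includes 0.

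The other 23 genes of the pathway, isozymes and regulators included, were listed for comparison, and 21 of them passed the minimum mean. In KD-1, 2 were higher past 1.5-fold (Ldhb at 0.79 and Pgam2, the muscle phosphoglycerate mutase, at 0.77) and 1 was lower (Aldoc, the brain aldolase, at -0.78), with a median of 0.04. In KD-2, Pgam2 (1.06) and Eno2 (0.67) were higher, Aldoc (-0.80) and Slc16a3 (-0.73), which encodes the lactate exporter MCT4, were lower, and the median was -0.01. These and the other list counts stand beside 8.98% higher and 5.39% lower of all genes in KD-1, 19.4% and 7.53% for KD-2, and 11.7% and 17.6% for KD-1 against KD-2. On the log2 scale Tpi1, triosephosphate isomerase, was at -0.28 and -0.37, Pgam1 at 0.01 and -0.46 and Gpi1 at 0.04 and 0.08. The sum of this list was 0.985 of control under KD-1 and 0.898 under KD-2, nearer to control than the sum of the members. Between the knockdowns, Pfkfb1 (0.95), a bifunctional enzyme that sets the level of fructose 2,6-bisphosphate, and Ldhb (0.74) were higher past 1.5-fold in KD-1 and Eno2 (-1.01) was lower. Pklr was also past it, but with 49 and 28 reads its interval (0.63, -0.06 to 1.36) includes 0.

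Pyruvate entry into mitochondria and the pentose phosphate branch were described by further lists. Of 12 genes around pyruvate dehydrogenase, KD-1 had 1 lower past 1.5-fold (Pdp1, a phosphatase that activates the complex, at -0.73) and KD-2 had 1 higher (Pdk2 at 1.06, from 55 reads in control and 119 in KD-2). The subunit genes Pdha1 (-0.06 and -0.27) and Pdhb (0.14 and -0.07) stayed within 1.5-fold. Between the knockdowns, Pdp2 (0.83) was higher in KD-1 past 1.5-fold, and Pdp1 (-1.23) and Pdk2 (-0.70) were lower, or 8.33% and 16.7% of the list, close to the 11.7% and 17.6% of all genes. Of 8 pentose phosphate genes, none was past 1.5-fold in KD-1, and in KD-2 Pgls, 6-phosphogluconolactonase (1.31), and H6pd (0.93) were higher. G6pdx, the entry enzyme of this branch, was at -0.22 and -0.15, and Tkt, transketolase, the gene of this list with the most reads, at -0.05 and -0.18. Pgls shares 776 exon bases with Fam129c on the same strand.

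The regulators and other targets of the hypoxia response were listed as well. Hif1a, the oxygen-regulated subunit, had log2 fold changes of -0.04 under KD-1 and -0.01 under KD-2. Of 10 regulators, Epas1, which encodes HIF-2α (0.92), and Myc (0.62) were higher past 1.5-fold in KD-1, and none was past it in KD-2. Of 18 further genes known to be induced by hypoxia, 2 were lower in KD-1 past 1.5-fold (Adm at -0.83 and Ankrd37 at -0.64) and 0 higher, with a median of -0.20. In KD-2, 5 were higher (Vegfa at 1.05, Ddit4 at 0.98, Adm at 0.97, Car9 at 0.96 and P4ha2 at 0.70) and 1 lower (Ankrd37 at -0.98), with a median of 0.08. These are 27.8% and 5.56% of the list, beside 19.4% higher and 7.53% lower of all genes, so neither share is read as a result about the list. Kdm3a, a histone demethylase gene and the one of this list with the most reads, was at 0.01 and -0.44. Between the knockdowns, 6 were lower in KD-1 past 1.5-fold (Adm, Car9, P4ha2, Vegfa, P4ha1 and Car12, at -1.81 to -0.77) and 0 higher, or 33.3% and 0% of the list, beside 17.6% lower and 11.7% higher of all genes. The fibroblast markers were low in KD-1 and high in KD-2, and their part in the values of this list was not tested.

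How far reads can be assigned to a member differs between members. Of all stretches of 50 bases, the read length, in the longest protein-coding transcript, other genes' transcripts hold 1.74% for Slc2a1, 13.5% for Aldoa, 16.6% for Ldha, 17.1% for Pfkp, 34.4% for Pkm, 68.0% for Pgk1, 72.2% for Eno1 and 82.5% for Gapdh. For Gapdh these are transcripts of 222 other annotated genes, and for Pgk1 of 5, chiefly Pgk1-rs7 (67.9%) and Gm5537 (67.7%). How reads from shared stretches were assigned was not tested, so the levels of Pgk1 and Gapdh relative to other genes are uncertain. Of 6 measured genes in a list of near copies and relatives of members, 2 were lower past 1.5-fold in KD-2. These were Ldhc (-1.11, from 120 reads in control and 57 in KD-2) and Aldoart1 (-0.62, from 82 and 55). Aldoart2, with 11 reads in control and 8 in KD-1, had a value of -0.64 there with an interval of -2.19 to 0.77, which includes 0. Aldoart1 holds 6.27% of the Aldoa stretches. Ldhc and Aldoart2 hold no such stretch of a member, so their values do not bear on how member reads were assigned.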

How the data were processed

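Total RNA of 3 cultures was depleted of ribosomal RNA, and single-end reads of 50 bp were sequenced. The authors trimmed reads with Trim Galore 0.4.1, mapped them with TopHat2 2.1.1 to mm10, kept a mapping quality above 30 and deposited raw counts per gene. The methods name featureCounts and the submitters' processing notes HTSeq, and the counted strand is not given in the sources used here. Reads outside of genes were 21.5% to 24.1% and ambiguous reads 1.45% to 1.65% per library, and both were left out.

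Counts were scaled with upper-quartile factors of edgeR 4.0.16 (R 4.3.3) over genes averaging at least 10 reads. The study also scaled by the upper quartile, but together with removal of unwanted variation by RUVseq, which was not done here. log2 fold changes used a pseudocount of 0.5 reads and intervals are exact conditional binomial. The study's fixed spike-in dispersion was not used here. Both knockdowns were tested against control with edgeR's quasi-likelihood test and Benjamini-Hochberg adjustment over 16670 genes. Alternatives were TMM, DESeq2 1.42.0 size factors, library totals, a pseudocount of 5, no filter, a fold of 2 and DESeq2's Wald test. The background of genes averaging at least 1000 reads and the other lengths were chosen after seeing the data. GENCODE M21 positions (GRCm38) matched 23376 genes by symbol and 645 by an older symbol. The rule for named genes was all members and, from each list, genes past 1.5-fold in a comparison or with the most reads, with the rest as counts and medians. Of the fibroblast markers, which were all past 1.5-fold between the knockdowns, and for the ES cell, primitive endoderm, pentose phosphate, regulator and near-copy lists between the knockdowns, not every such gene is named. Hk1, Eno3, Tpi1, Pgam1, Pfkl, Pfkm, Pdk3, Hif1a, Pdha1, Pdhb, G6pdx, Pou5f1, Nanog and Gpi1 were named as isozymes or well-known genes after their values were seen. The members and lists were chosen with earlier results of these data known.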

Additional observations from a re-analysis of the deposited data

Results flagged for a closer look

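Hk2 and Pfkp lay on opposite sides of control in the 2 knockdowns. Hk2 was at a log2 fold change of 0.12 under KD-1 and -0.19 under KD-2, a difference between the knockdowns of 0.31. With DESeq2 size factors the Hk2 value under KD-1 was 0.041, and with library totals that under KD-2 was -0.098. Pfkp was at 0.12 and -0.71, a difference of 0.83, and with DESeq2 size factors its KD-1 value was 0.047. The directions held under each scaling, pseudocount and filter tried. With 1 library per knockdown the difference was not tested.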

How the results depend on the processing

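No member value changed direction in a comparison of 2 libraries under another scaling, pseudocount or filter. With both knockdowns as 1 group, 8 of 9 member values were below 0, but 7 of 9 with library totals. The summed primitive endoderm markers under KD-1 turned from 0.869 of control to 1.22 without Pdgfra. Without a filter on low counts Eno1 entered the counts, as 1 member higher in KD-1, 1 higher in KD-2 and 1 lower in KD-1 relative to KD-2. With a fold of 2 the members lower were 0 under KD-1 and 1 under KD-2, and 0 were higher in KD-1 than in KD-2. That last count was 1 with DESeq2 size factors and 1 with library totals, and with totals Ldha in KD-2 (-0.52) was no longer past 1.5-fold. The median in KD-1 was -0.088 with TMM, -0.13 with DESeq2 size factors and -0.081 with totals. In KD-2 it was -0.18 with totals and -0.34 without a filter. Between KD-1 and KD-2 it was 0.18 with DESeq2 size factors, 0.12 with totals and 0.28 without a filter. For both knockdowns it was -0.20 with TMM, -0.23 with DESeq2 size factors, -0.15 with totals and -0.21 without a filter, and -0.28 to -0.059 leaving out 1 knockdown library. Members called in the group test were 0 in each alternative, with lowest unadjusted p of 0.0714 to 0.141 by edgeR or DESeq2. Library totals moved the median of all genes between KD-1 and KD-2 by -0.12. The genes higher among those past 1.5-fold were 62.5% in KD-1 (52.1% with DESeq2 size factors) and 72.0% in KD-2 (82.8% with totals, 60.9% without a filter). In KD-1 against KD-2 they were 39.9% (25.8% with totals, 49.7% without a filter). No paired analysis was possible because each condition has 1 library.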
